A study of Mus musculus with 24 samples.

Results

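The miR-126a arms are the 2 mature miRNAs, mmu-miR-126a-3p and mmu-miR-126a-5p, that are cut from the opposite sides of 1 hairpin precursor. They were taken by name from the mouse miRNA arrays, and they are 2 of the 1881 mouse miRNAs measured there. The arrays came from a study of lens-induced myopia in male C57BL/6J mice, in which a negative lens was fixed over the right eye. Total RNA from cornea, iris, lens, retina, choroid (named RPE/choroid in the study), sclera and 2 brain regions labeled SCN and LGN was applied to 24 arrays, with 1 array for each of the 8 tissues in each of 3 groups. The groups were normal eyes, which wore no lens, a 0 D group and a −30 D group, whose lens was fixed at 3 weeks of age and worn for 3 weeks. For the ocular tissues of the normal and −30 D groups, the methods state that RNA from 3 mice was mixed for each array, and nothing comparable was stated for the 0 D group or the brain regions. Each slide held the 8 tissues of a single group, and an effect of the slide cannot be told apart from one of the lens.

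MicroRNAs are short RNAs that pair through their seed, a stretch near the 5′ end, with messenger RNAs and lower their output. miR-126 is known as a miRNA of endothelial cells, the lining of blood vessels, and it lies inside Egfl7, a gene that endothelial cells also express. Its 3p arm is known to act on Spred1 and Pik3r2, which restrain growth factor signaling in endothelial cells, and its 5p arm on Dlk1. The choroid, iris, retina and brain are supplied by blood vessels, whereas the normal cornea and the lens of the adult eye have none, so that the tissues form a contrast of 5 vascular tissues against 2 avascular ones. The sclera, a fibrous coat with few vessels of its own, was kept outside this contrast.

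The 3p arm is printed here because nearly all of the signal described belongs to it, with its seed, bases 2 to 8, in capitals. The hairpin is printed with the same arm in capitals, to show that the 5p arm is cut from the other side of the stem. The third sequence is an arm of miR-126b, which is encoded on the opposite strand of the same locus, again with the seed in capitals.
mmu-miR-126a-3p: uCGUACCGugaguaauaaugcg
mmu-mir-126a: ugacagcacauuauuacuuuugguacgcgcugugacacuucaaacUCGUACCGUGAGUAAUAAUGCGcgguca
mmu-miR-126b-5p: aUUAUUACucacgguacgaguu
The sequences and positions are those of RefSeq on GRCm38.p6, in which the mature sequence of 1 of the 2 arms was found, and the 5p arm is therefore only named. The hairpin is 73 bases long and lies on the plus strand at chr2:26591357-26591429, inside the span of Egfl7 (chr2:26581083-26592682), 10274 bases after its start. The 3p arm takes bases 46 to 67 of the hairpin (chr2:26591402-26591423). Of the 1679 named mature miRNAs in the table, 1, the arm itself, holds the seed CGUACCG. miR-126b-5p (chr2:26591399-26591420, minus strand) overlaps the 3p arm by 19 bases on the other strand. Neither arm of miR-126b was above 3 errors on any of the 24 arrays.

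Detection required a probe signal above 3 times its own error, and the level of a miRNA is the sum over its probes that passed, scaled between arrays and given in the arbitrary units of the scanner. Every ± value below is the error of the signal within 1 array unless SD is named. Between 129 and 249 miRNAs, or 6.86% to 13.2%, were detected per array. The tissue labels were set against miRNAs of known cell types. miR-205-5p, a miRNA of surface epithelium, had a median of 1098 in the cornea, 4.92 in the iris and was not detected at the median of any other tissue. miR-124-3p, a miRNA of neurons, had medians of 10441 in the retina, 2031 in the LGN and 1427 in the SCN, and it was also detected in choroid (724), sclera (346) and lens (309). Both were picked from longer lists. miR-200c-3p (506) and miR-203-3p (65.3), also of surface epithelium, had their highest medians in the cornea, but miR-31-5p was higher in the lens (358) than in the cornea (256). Of the neural and retinal list, miR-9-5p, miR-9-3p and miR-128-3p were detected in retina, SCN and LGN. miR-183-5p, miR-96-5p and miR-182-5p were not detected at the median of SCN or LGN.

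mmu-miR-126a-3p was detected on 19 of the 24 arrays. It was found on all 3 arrays of choroid, sclera, iris, LGN, SCN and retina, on 1 of 3 cornea arrays and on no lens array. Its highest level was in the choroid, with 1198 ± 87.9 in normal eyes, 1030 ± 75.6 with the 0 D lens and 1203 ± 88.3 in the −30 D group. All 3 choroid arrays stood above every array of the other tissues.

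The sclera gave 393 ± 28.9 in normal eyes, 387 ± 28.6 with the 0 D lens and 242 ± 18.0 in the −30 D group. The iris gave 331 ± 24.4, 350 ± 25.9 and 329 ± 24.2 in the same order of groups. The iris arrays were within 1.06-fold of each other, and they lay inside the wider range of the sclera, in which the −30 D array was the low one.

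The LGN, a visual relay nucleus of the thalamus, gave 160 ± 11.8 in the normal group, 215 ± 15.8 with the 0 D lens and 202 ± 15.0 in the −30 D group. The SCN, the circadian nucleus of the hypothalamus, gave 198 ± 14.8, 171 ± 12.7 and 164 ± 12.3. The levels of the 2 brain regions overlapped, and both regions lay below iris and sclera on every array.

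The retina gave 70.5 ± 5.38, 75.1 ± 5.66 and 67.5 ± 5.19 in the same order, the lowest levels among the vascular tissues. The cornea gave no detected signal in normal eyes or with the 0 D lens, and 86.5 ± 7.37 in the −30 D group, which was above all 3 retina arrays. Where the arm was not detected, the sum of both probes at 3 errors gave an upper limit of its level. On the same scale, it was 24.3 and 19.5 on the 2 other cornea arrays and 22.0 to 27.5 on the lens arrays. A single probe above 3 errors would have sufficed for detection.

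**Figure D1:**
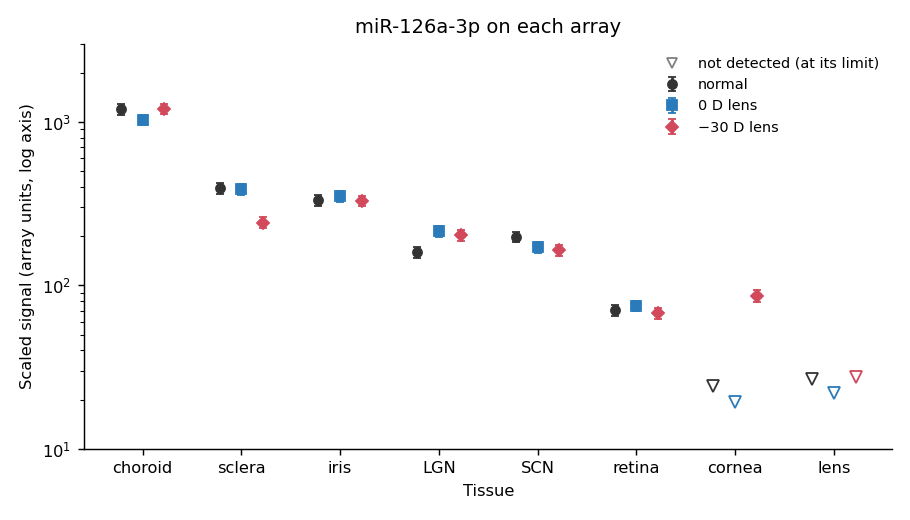
Scaled signal of mmu-miR-126a-3p (log axis, array units) on each of the 24 arrays, by tissue and lens group. Points are single arrays with the error of the signal within that array. Open triangles mark arrays on which the arm was not detected, drawn at the upper limit of its level. The 3 choroid arrays sit between 1030 and 1203, and the −30 D cornea array, at 86.5, is the only avascular array with a detected signal.

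By the median of the 3 arrays the order was choroid (1198), sclera (387), iris (331), LGN (202), SCN (171) and retina (70.5), followed by cornea and lens. Without scaling, iris came before sclera and the other places were kept. The means were 1144 ± 98.6 (SD, n = 3) in the choroid, 341 ± 85.2 in the sclera, 336 ± 11.7 in the iris, 192 ± 28.7 in the LGN, 178 ± 17.9 in the SCN and 71.0 ± 3.81 in the retina. In bulk tissue, a smaller share of endothelial cells and less of the miRNA per cell cannot be told apart.

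The ranges of 3 arrays did not overlap in 24 of the 28 pairs of tissues. The exceptions were iris and sclera, SCN and LGN, and the cornea with the lens and with the retina. Over all 352 miRNAs tested, ranges did not overlap in 60.2% of such comparisons. A limma fit over the 24 arrays had tissue and lens group as factors. In it, undetected values, and detected values below it, were set to a common floor of 9.93. The level of the arm differed in 20 of the 28 pairs at a Benjamini-Hochberg adjusted p under 0.05. The share was 46.3% over all comparisons of the tested miRNAs.

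The choroid exceeded the iris by 1.76 ± 0.55 on the log2 scale (± SE, limma adjusted p = 0.0236) and the sclera by 1.78 ± 0.55 (adjusted p = 0.0288). It exceeded the retina by 4.01 ± 0.55 (adjusted p = 1.2e-05). The first 2 calls were lost when the normal group (adjusted p = 0.208 and 0.165) or the 0 D group (adjusted p = 0.198 and 0.186) was left out of the limma fit, and that against the iris also without scaling (adjusted p = 0.0527). In each of these fits without 1 group, 14 of the 28 pairs differed, and the same 6 calls were lost, those of choroid against iris and sclera and of retina against cornea, iris, sclera and LGN. With undetected miRNAs at 0.1, 13 pairs differed. The share over all miRNAs in these alternative fits is not given here. Between iris and sclera the difference was 0.01, with a 95% confidence interval of −1.16 to 1.19, and between SCN and LGN it was −0.11 (−1.28 to 1.07), so that neither neighboring pair in the order differed beyond its error.

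The retina lay below the LGN (limma adjusted p = 0.0473, and 0.0875 without scaling), whereas the difference from the SCN, −1.32 ± 0.55, did not pass the threshold (adjusted p = 0.0612). Iris and sclera exceeded the brain regions by 0.80 to 0.93 without passing the threshold. These calls turned on the −30 D cornea array. In the fit without the cornea the SE was 0.15, and 19 of the 21 remaining pairs differed, against 14 with it. The number was also 19 when that 1 array was left out. The share over all miRNAs in these fits is not given here. The lens arrays all stood at the floor, with no spread of their own to add to the SE. The pairs added were retina against SCN and each of iris and sclera against each brain region. The 2 that still did not differ were iris against sclera, at 0.01 (−0.32 to 0.35), and SCN against LGN, at −0.11 (−0.44 to 0.23).

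Over the whole contrast, mmu-miR-126a-3p was higher in the 5 vascular tissues than in cornea and lens by 4.12 ± 0.32 on the log2 scale (± SE, 95% confidence interval 3.42 to 4.81, limma adjusted p = 7.6e-09). Of the 352 miRNAs tested, 45.2% were higher and 26.4% lower in this contrast, and the difference of the arm was the 2nd highest. The size of this difference depends on the floor given to the undetected arrays. Within each lens group the difference was 4.62 in normal eyes, 4.66 with the 0 D lens and 3.06 in the −30 D group. With the 7 tissues as the units, an exact permutation test, made two-sided by doubling the one-sided p, gave p = 0.0952. That is the smallest value that 21 arrangements allow with this doubling.

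Against the lens, in which the arm was not detected, only a lower limit of the ratio can be given. Over the 3 lens groups, as the geometric mean of their limits, the level was at least 45.1-fold higher in the choroid, 13.3-fold in the iris, 13.2-fold in the sclera, 7.54-fold in the LGN, 6.998-fold in the SCN and 2.80-fold in the retina. The lowest limit within a single lens group was 43.8-fold for the choroid, 11.95-fold for the iris, 8.82-fold for the sclera, 5.96-fold for the LGN and for the SCN and 2.45-fold for the retina. On the normal arrays the cornea held at most 2.03% of the level of the choroid, 7.36% of the iris and 6.19% of the sclera, and on the 0 D arrays at most 1.89%, 5.56% and 5.03%. On the −30 D arrays the cornea held 7.19% of the choroid, 26.3% of the iris and 35.7% of the sclera. In the fit the cornea lay below the retina, by −1.80 ± 0.55 on the log2 scale (± SE, limma adjusted p = 0.0114), although the ranges of their arrays overlapped. This call was lost without the normal group (−1.28, adjusted p = 0.273) or the 0 D group (−1.23, adjusted p = 0.311), and with normexp background correction (−0.17, adjusted p = 0.326). The floor of 9.93 also lies below the upper limits of both undetected cornea arrays. Between cornea and lens the difference was 1.04 ± 0.55 (adjusted p = 0.165).

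The 3p arm was read by 2 probes with 15 spots each. On the 19 arrays that detected it, both probes were above 3 errors, and the signal of the one was 1.75 to 1.86 times that of the other. The ratio was 1.75 on the −30 D cornea array, the lowest of the 19, so that both probes carried the corneal signal.

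In the cornea, mmu-miR-126a-3p with the −30 D lens exceeded the limit of the normal array at least 3.56-fold and that of the 0 D array at least 4.45-fold. With 1 array for each group there is no test of this difference. The criteria of the study were a ratio above 2 or below 0.5 where both arrays detect a miRNA, and above 5 or below 0.2 where 1 of them does. Undetected miRNAs were set here to 0.1, and since no detected miRNA was below 1.09, detection on 1 of 2 arrays is by itself enough to meet them. The arm met them in this way, while its measured lower limits were under 5. The same criteria were met upward by 29.1% of the miRNAs detected on either array against normal eyes, and by 20.6% against the 0 D lens. The −30 D cornea array detected 172 miRNAs, compared with 137 and 149 on the normal and 0 D arrays.

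The arm was 1 of 25 miRNAs that were detected on the −30 D cornea array and on neither of the other cornea arrays. For the normal and the 0 D cornea the corresponding numbers were 7 and 3. Before scaling, the dimmest detected miRNA was at 2.52 on the −30 D cornea array, 3.05 on the normal and 5.79 on the 0 D array. Detection on the −30 D array alone therefore need not mean a higher level. Of the 25 miRNAs, 22 were detected on all 3 sclera arrays, 21 on all choroid arrays and 20 on all iris arrays, compared with 14 for the retina, 10 for the SCN, 9 for the LGN and 6 for the lens. The share of all miRNAs detected on all 3 arrays of a tissue was not computed, so whether these counts exceed that share cannot be said. Single sclera arrays detected 216 to 239 of the 1881 miRNAs, choroid arrays 222 to 239 and iris arrays 213 to 234. The number was 222 to 245 for retina, 246 to 249 for SCN, 225 to 240 for LGN and 129 to 149 for lens.

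Markers of other cell types on the 3 cornea arrays were read beside the corneal signal. Of the 8 blood cell miRNAs, 0, 2 and 2 were detected in normal, 0 D and −30 D corneas, with sums of detected signals of 0, 37.5 and 24.2. miR-144-3p, miR-144-5p and both arms of miR-142a were not detected in any of them. miR-451a, a miRNA of red cells, was not detected in the normal cornea and gave 11.98 ± 3.43 with the 0 D lens and 10.8 ± 2.85 in the −30 D group. The −30 D signal was 0.44 times the limit of the normal array for miR-451a and 0.54 times for miR-223-3p, the other one detected. Lower levels of blood cell miRNAs in the normal cornea are thus not shown. None of the 4 miRNAs of mural cells and smooth muscle, the cells around vessels, was detected in any cornea. Their sum was 319 to 331 in the iris, in which miR-143-3p, a smooth muscle miRNA, had a median of 307.

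The sum of the 4 surface epithelium miRNAs was 1982, 1890 and 1675 in normal, 0 D and −30 D corneas, and that of the 3 fibroblast miRNAs 249, 284 and 253. The 2 pigment cell miRNAs summed to 685, 761 and 751, but miR-211-5p, which marks pigmented cells and had a median of 782 in the iris, gave 23.7 ± 3.70, 12.04 ± 2.28 and 43.3 ± 3.41, with the highest value on the −30 D array. miR-9-3p, a neural miRNA, was detected at 19.9 ± 3.32 on the −30 D cornea array and on neither of the others. That signal was 0.82 times the limit of the normal array, so a lower level in the normal cornea is not shown. Its medians were 1411 in the SCN, 1199 in the LGN, 794 in the retina, 166 in the choroid and 110.5 in the sclera. miR-128-3p, of the same list, was detected on the 0 D cornea array only, at 11.05 ± 3.40. The sums of the 7 neural and retinal miRNAs, which include miR-9-3p and miR-128-3p, were 265, 268 and 258 in the 3 corneas. The part of adhering tissue in the corneal miR-126a-3p signal was not tested.

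**Figure D2:**
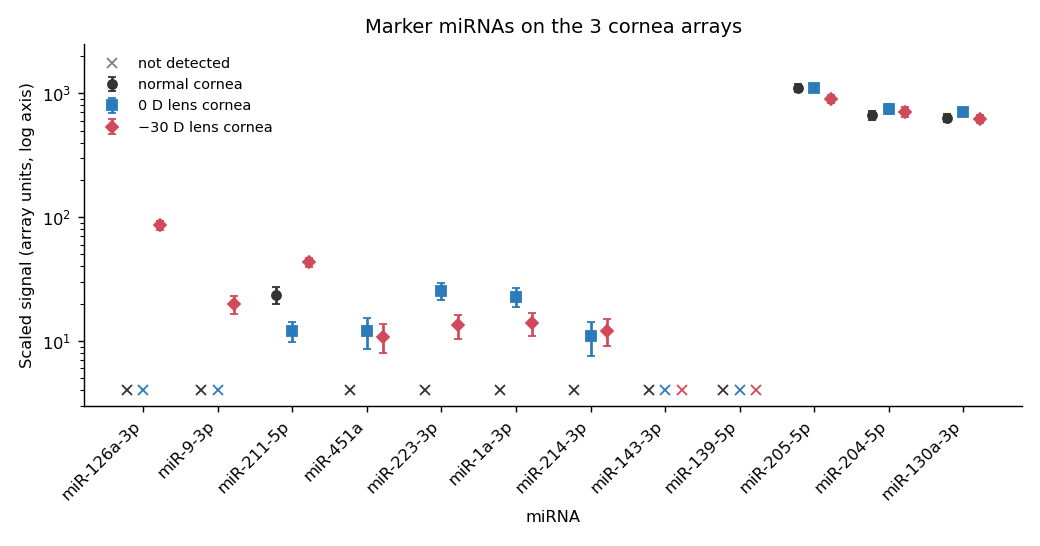
Scaled signal (log axis, array units) of mmu-miR-126a-3p and of 11 marker miRNAs, chosen after their values were seen, on the normal, 0 D and −30 D cornea arrays. Points are single arrays with the error within the array, and crosses mark miRNAs that were not detected. miR-126a-3p and miR-9-3p appear on the −30 D array only, whereas miR-143-3p and miR-139-5p appear on none.

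In the 6 tissues in which every array detected mmu-miR-126a-3p, its log2 ratio between −30 D and normal eyes ranged from −0.70 to 0.34. None of these ratios met the criteria, which 17.2% of the detected miRNAs met over the 8 tissues in either direction. That share includes cornea and lens, and calls from detection on 1 of 2 arrays, which could not arise for the arm in these 6 tissues. In 2 of the 6 tissues the ratio was beyond 2 of its errors, and the directions were opposite. It was −0.70 ± 0.15 in the sclera, a ratio of 0.617, and 0.34 ± 0.15 in the LGN. In choroid, iris, retina and SCN it was 0.01 ± 0.15, −0.01 ± 0.15, −0.06 ± 0.16 and −0.27 ± 0.15. Without scaling, the SCN changed sign to 0.10. With quantile normalization, the SCN (−0.44) was beyond 2 errors and the LGN (0.29) was not.

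Between 0 D and normal eyes the ratio ranged from −0.22 in the choroid to 0.43 ± 0.15 in the LGN, and the LGN was the only tissue beyond 2 errors after scaling. Without scaling, iris (0.56), retina (0.41), choroid (−0.38) and SCN (0.67) were beyond 2 errors as well, and the SCN changed sign from −0.21. None met the criteria, against 15.6% of the detected miRNAs over the 8 tissues. That share again includes calls from detection on 1 of 2 arrays. The normal LGN array was thus the low one of its 3 arrays. Between −30 D and 0 D eyes the sclera again stood apart, with −0.67 ± 0.15, and the other 5 tissues lay between −0.15 and 0.22. Without scaling, the iris (−0.68), SCN (−0.57), retina (−0.40) and LGN (−0.35) were also beyond 2 errors in this comparison.

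Marker lists on the 3 sclera arrays went in different directions. The blood cell list summed to 89.6, 83.8 and 67.3 in normal, 0 D and −30 D scleras, the mural list to 39.9, 37.3 and 24.1, and the fibroblast list to 1214, 1266 and 1089, all lowest on the −30 D array. A list of 12 miRNAs known from endothelium, miR-126a-3p among them, summed to 759, 766 and 534, also lowest there. The striated muscle list summed to 74.0, 160.7 and 121, lowest in normal eyes, the neural and retinal list to 1800, 900.1 and 953, highest in normal eyes, and the pigment cell list to 592, 745 and 571. By the criteria, 14.2% of the miRNAs were higher and 14.6% lower in the sclera between −30 D and normal eyes. The part of these cells in the scleral difference was not tested.

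**Figure D3:**
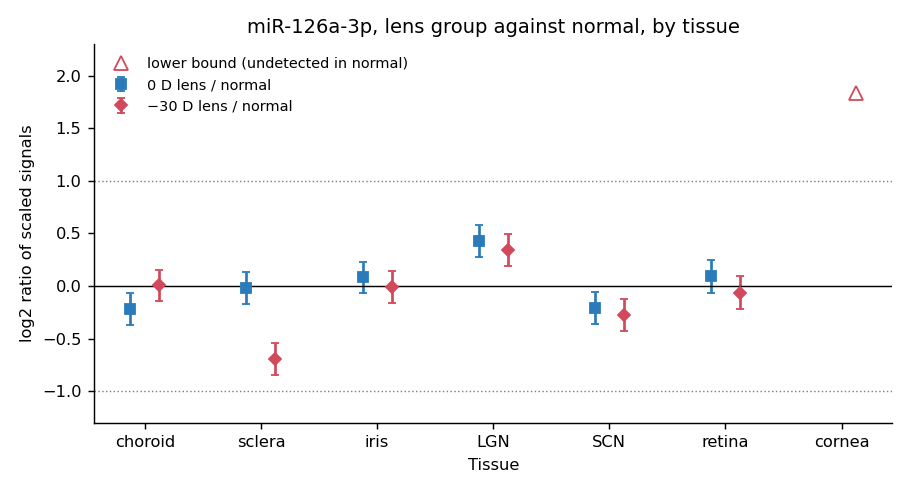
log2 ratio of the scaled signal of mmu-miR-126a-3p with the 0 D lens (squares) and the −30 D lens (diamonds) against normal eyes, by tissue. Bars are errors propagated from both arrays, dotted lines mark a ratio of 2 and 0.5, and the open triangle is the lower limit in the cornea with the −30 D lens, where the normal array did not detect the arm. No ratio is drawn for the 0 D cornea or for the lens, in which neither array of the pair detected the arm, and the sclera with the −30 D lens, at −0.70, is the lowest point.

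A difference between lens groups common to the tissues was read from the same limma fit, with the tissue as a factor. The coefficient of mmu-miR-126a-3p was 0.30 ± 0.34 (± SE) for −30 D minus normal (limma adjusted p = 0.854), 0.02 ± 0.34 for 0 D minus normal (adjusted p = 1) and 0.29 ± 0.34 for −30 D minus 0 D (adjusted p = 0.772). Their 95% confidence intervals were −0.41 to 1.02, −0.70 to 0.74 and −0.43 to 1.003. In the first of these comparisons limma called 0 of the 352 miRNAs, with 25 at an unadjusted p under 0.05. Without the −30 D cornea array the first and the last coefficient turned to −0.10 ± 0.10 and −0.12 ± 0.10, also without passing the threshold. Each tissue has 1 array in a lens group and the arrays of a group share 1 slide, so that these p-values measure the spread between tissues and not between animals.

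mmu-miR-126a-5p was detected on 2 of the 24 arrays, both from the choroid. Its first probe, A_54_P1035, gave 5.84 ± 1.92 in normal eyes, 6.03 ± 2.07 with the 0 D lens and 5.99 ± 1.78 in the −30 D group before scaling. The 3 signals were within 1 error of each other, but the 0 D array was at 2.92 errors and the other arrays at 3.04 and 3.36, so that the 0 D array fell just under the threshold.

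On the other 21 arrays the same probe gave 0.933 to 3.45, with the highest value in the iris with the 0 D lens, so that all 3 choroid arrays stood above all others before scaling. After scaling, which raised the cornea and lens arrays, 2 arrays of other tissues lay above the lowest choroid array. The second probe, A_54_P4367, gave 2.71 to 3.01 in the choroid and 0.659 to 3.001 elsewhere, and it was never above 3 errors.

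By the criteria of the study, the 5p arm was lower in the choroid with the 0 D lens than in normal eyes, and higher with the −30 D than with the 0 D lens, because the undetected array was set to 0.1. Of the miRNAs detected on either array, 6.44% and 13.1% met the criteria in these directions. No fold can be given for either difference, since the upper limit of the 0 D array lay above the signals of the others. Between −30 D and normal choroid, on both of which it was detected, the log2 ratio was 0.17 ± 0.64. The arm was detected on too few arrays to be tested in the limma fit.

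**Figure D4:**
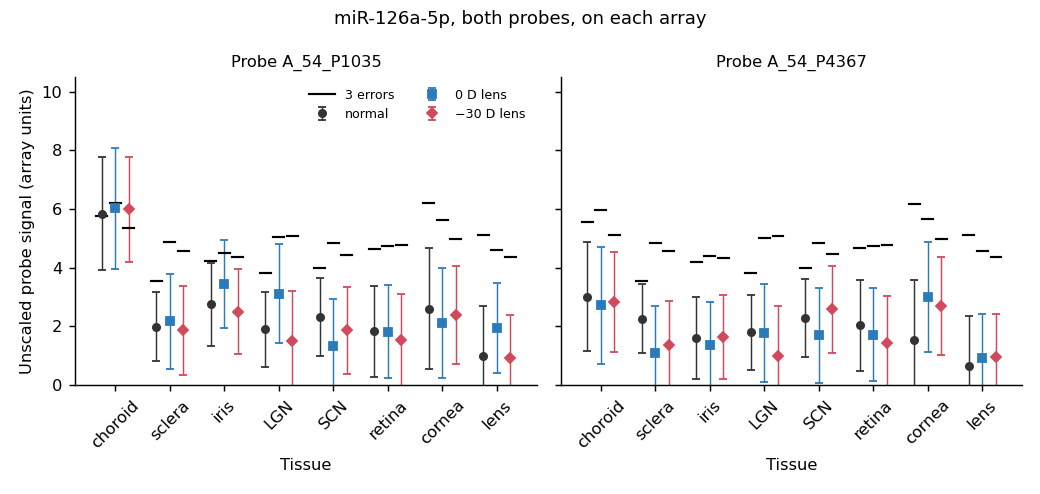
Unscaled signal of both mmu-miR-126a-5p probes (array units) on each of the 24 arrays, by tissue and lens group. Bars are the error of each probe signal and black ticks mark 3 errors, the limit for detection. Only the normal and −30 D choroid signals of probe A_54_P1035 lie above their tick, with the 0 D choroid, at 6.03, just below its own.

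A wider list of miRNAs known from endothelium went in both directions. Of its 12 miRNAs on the array, 7 were tested in the contrast of vascular against avascular tissues. Of these, 3, miR-126a-3p among them, were higher and 2 lower. Over all 352 miRNAs tested, 45.2% were higher and 26.4% lower. The median difference of the 7 was 0.09 on the log2 scale, compared with 0.01 over all 352 miRNAs tested. Beside miR-126a-3p, miR-139-5p rose by 1.31 ± 0.13 (± SE, limma adjusted p = 1.8e-07) and miR-221-3p by 0.45 ± 0.03 (adjusted p = 1.8e-09). The medians of miR-221-3p were 26.1 in the SCN, 18.3 in the LGN, 16.6 in the iris and 12.8 in the avascular cornea. Its median was 4.97 in the choroid, and it was not detected at the median of retina or lens. The choroid and retina medians thus lay below the cornea median, and below the common floor to which the fit raised low values. miR-130a-3p and miR-92a-3p, which many cell types express, were lower by −1.80 ± 0.06 and −1.78 ± 0.07 (adjusted p = 7.3e-14 and 9.7e-13). miR-222-3p (0.09) and miR-218-5p (−0.02) did not pass the threshold. miR-10a-5p and miR-10b-5p were not detected on any array.

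Unlike miR-126a-3p, miR-139-5p had its highest medians in SCN (74.1) and LGN (73.2), with 19.4 in the choroid and 4.26 in the retina. Blood cell miRNAs were detected in the vascular tissues as well, with sums of 92.2 to 123 in the choroid, 70.4 to 87.1 in the iris, 69.1 to 96.5 in the SCN, 71.6 to 80.4 in the LGN and 11.0 to 13.3 in the retina. None of the 8 was detected in the lens. In the vascular contrast 2 of the 5 blood cell miRNAs tested were higher and 0 lower at a limma adjusted p under 0.05. The shares over all 352 miRNAs tested were 45.2% higher and 26.4% lower. Of the 7 neural and retinal miRNAs tested, 5 were higher and 1 lower, with a median difference of 1.67 on the log2 scale. miR-9-3p, a member of that list, rose by 4.78 ± 0.15 (± SE), more than miR-126a-3p. Retina, SCN and LGN are neural as well as vascular tissues, and the part of neural tissue in the contrast was not tested.

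The miRNAs whose levels followed mmu-miR-126a-3p most closely were sought among the 196 others detected on at least 12 arrays, by Spearman's rho over the 24 arrays. They were miR-223-3p, a miRNA of myeloid cells (rho = 0.89), miR-99a-5p (0.84), let-7c-5p (0.83), let-7i-5p (0.82) and miR-24-3p (0.81). The next miRNA had a rho of 0.79, and the median over all candidates was 0.17. The arrays share slides and scaling, and the likeness is a description of these arrays only.

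miR-223-3p had medians of 53.1 in the choroid, 51.4 in the sclera and 38.3 in the iris, but 4.85 in the SCN and 5.38 in the LGN, and it was not detected in retina or lens. In the cornea its levels were 25.5 in the 0 D group and 13.3 in the −30 D group, without detection in normal eyes, which differs from miR-126a-3p. The other 4 were detected on all 24 arrays. miR-99a-5p, the most alike of these, gave 93.6, 79.7 and 126 in normal, 0 D and −30 D corneas, the highest value on the array that detected miR-126a-3p. No similar miRNAs were sought for mmu-miR-126a-5p, which had 2 detected values.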

How the data were processed

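The authors scanned 24 single-color arrays, each from 100 ng of total RNA, with Agilent Feature Extraction 10.7.1.1 (per the labels). The deposited values are intensities, which the software corrects for background and combines into a total signal and error per probe. The signals of probes above 3 errors were summed for each miRNA, because the printed total gene signal differed from this sum by over 1% for 52 to 96 miRNAs per array. For scaling, the 75th percentile of the 79 miRNAs found on every array was made equal (log2 factors −1.01 to 1.65). For lower limits, an undetected arm was set to the sum of its probes at 3 errors, or to that array's dimmest detected miRNA if this was brighter.

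The fit used limma 3.58.1 in R 4.3.3, with 352 miRNAs detected on at least 3 arrays and 14 residual degrees of freedom. Undetected values and detected values below 9.93 were set to that floor. It was tested on simulated data. Python 3.11.15, pandas 2.3.3 and scipy 1.17.1 were used elsewhere. The 2 arms are named by the selection itself, list members where a result turns on them, and similar miRNAs by rank of rho. Members, lists and tests were chosen with earlier results of these data known. Alternatives covered scaling, floor, filters, background correction, printed totals and leaving out tissues, lens groups or the −30 D cornea array. The authors' normalized table was not used, because its column names could not each be tied to 1 sample. The number of arrays limits the precision.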

Additional observations from a re-analysis of the deposited data

Results flagged for a closer look

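The ratio of mmu-miR-126a-3p between −30 D and normal eyes went in opposite directions in 2 ocular tissues. The cornea was at least 3.56-fold higher and the sclera lower, with a log2 ratio of −0.70 ± 0.15. With 1 array of each kind, this difference between tissues was not tested.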

How the results depend on the processing

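The vascular minus avascular difference of mmu-miR-126a-3p kept its direction and passed the limma threshold under every alternative fitted, from 1.67 with normexp to 9.64 with undetected miRNAs at 0.1. Within the −30 D group it was 3.06, without a test. It was 3.84 to 4.64 when 1 lens group was left out, and 4.65 without the −30 D cornea array, an alternative added after the data were seen. The number of differing tissue pairs fell from 20 to 13 of 28 with undetected miRNAs at 0.1, was 14 to 25 when 1 lens group was left out and was 25 without the −30 D cornea array. The share over all miRNAs under these alternatives is not given here. The lens group coefficients never passed. The coefficient for −30 D minus normal turned to −0.10 without the cornea and −0.10 without the −30 D cornea array, that for −30 D minus 0 D to −0.12 and −0.12, and that for 0 D minus normal to −0.011 in ocular tissues and −0.040 without the LGN. The lower limit for the cornea was 4.35-fold without scaling. Of 54 recomputed single ratios, 15 moved beyond their error, 11 of them without scaling. miRNAs higher and lower in the vascular contrast, 159 and 93 in the report, numbered 103 and 218 with each array's own floor and 40 and 297 with normexp, and 48 were lower without scaling. The causes were not tested. A 75th percentile over all miRNAs gave no scaling, since too few of them were detected, and the deposited table was not run. The labels carry no replicate numbers, and the lens groups were compared within tissues through the tissue factor of the fit. Signals near 3 errors limit what can be said of the 5p arm.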
